A study of Homo sapiens with 8 samples.

Results

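CD274, PDCD1LG2 and CD276 encode the cell-surface proteins PD-L1, PD-L2 and B7-H3, ligands of the B7 family through which a tumour cell can restrain T cells. The 3 genes were chosen by their symbols in the platform's table of probes, with earlier results for the treatment contrasts of these same arrays in view, so their treatment differences are given as a description, and no test result of theirs is used as support. Each had 1 feature on the array, TC0900006559.hg.1 for CD274, TC0900006560.hg.1 for PDCD1LG2 and TC1500007822.hg.1 for CD276. They are 3 of the 33616 genes that the platform table names with exactly 1 symbol, and their features are 3 of 138745. All 3 were among the 23854 genes that passed the filter on dim features.

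The cells were PC-3, an established human prostate cancer cell line that grows independently of androgen. They were grown in RPMI-1640 with 5% fetal bovine serum and were either left without an added agent (control) or treated for 24 h with calcitriol at 10 nM, with TGF-β1 at 5 ng/mL or with both agents together (the combination). Total RNA was hybridised to Clariom D arrays, and each of the 4 groups has 2 arrays, A and B, which the labels describe as independent experiments. The labels give neither a vehicle nor an incubation time for the controls, and a cell line is 1 genotype, so the spread between arrays is that between cultures and not between patients.

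PD-L1 and PD-L2 bind PD-1 on activated T cells and dampen signalling from the T cell receptor. PD-L1 is made by many epithelial tumours and is strongly induced by interferon-γ through JAK kinases and the transcription factor IRF1, whereas PD-L2 is more typical of antigen-presenting cells and also binds RGMB. B7-H3 is widely present in prostate cancer, and its receptor is not settled. Calcitriol, the active form of vitamin D, acts through the vitamin D receptor, and CD274 and PDCD1LG2 have been reported as targets of that receptor in human cells. TGF-β1 acts through SMAD transcription factors.

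CD274 and PDCD1LG2 lie next to each other on chromosome 9, and CD276 lies on chromosome 15. The promoter of CD274 is shown because it carries the letters through which the interferon pathway acts, beside the first of 2 annotated CD276 promoters, which carries none of the motifs searched. Both are RefSeq sequences of build GRCh38.p14, plus strand, from 250 bases before the start site to 50 bases after it. The CD274 window is chr9:5450292-5450591 and the CD276 window is chr15:73684133-73684432. Capitals mark matches to the core of the interferon regulatory factor element, AANNGAAA, and to the STAT motif, TTCNNNGAA, on either strand.

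CD274: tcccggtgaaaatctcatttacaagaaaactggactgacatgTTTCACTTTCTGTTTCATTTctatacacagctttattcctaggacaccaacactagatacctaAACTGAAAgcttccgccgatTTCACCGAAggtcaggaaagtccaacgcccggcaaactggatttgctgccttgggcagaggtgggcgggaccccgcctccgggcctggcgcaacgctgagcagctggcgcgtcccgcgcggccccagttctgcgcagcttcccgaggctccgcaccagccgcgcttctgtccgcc
CD276: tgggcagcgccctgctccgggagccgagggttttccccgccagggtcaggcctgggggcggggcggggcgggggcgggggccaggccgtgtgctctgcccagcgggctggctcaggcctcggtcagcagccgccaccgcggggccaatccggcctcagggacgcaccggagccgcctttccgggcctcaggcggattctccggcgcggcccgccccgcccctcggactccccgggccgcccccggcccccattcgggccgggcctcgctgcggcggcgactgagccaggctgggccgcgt

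The CD274 window held 4 matches to the interferon regulatory factor core, with first bases at -208, -202, -196 and -145 from the start site, where -208 overlaps -202 and -202 overlaps -196. Of the 35116 promoters in the table, 22.83% held at least 1 such match and 0.27% held 4 or more. The window also held 1 STAT motif, at -125, which 7.66% of promoters carry. None of the other letters searched was found there, namely the AP-1 motif TGANTCA (7.71% of promoters), the SMAD motif CAGAC (45.26%), the E-box CACGTG (7.26%), the vitamin D response element of DR3 type (0.25%) or the NF-κB motif (11.27%). The printed CD276 window is richer in G and C, at 80.33% against 57.33% for CD274 and a median of 58.67% over all promoters. The other CD276 window, chr15:73684520-73684819, held 1 SMAD and 1 NF-κB motif. These matches are letters in a window of 300 bases and say nothing about binding in these cells. No promoter of PDCD1LG2 was among the 35116, so its letters were not searched.

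All 3 transcripts gave signal in untreated PC-3 cells. On every one of the 8 arrays each lay above the 95th percentile of the array's own negative controls, and the narrowest gap on the log2 scale was 2.23 for CD274, 1.80 for PDCD1LG2 and 2.13 for CD276. Levels of different genes come from different probes and are not set against each other here.

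CD274 was lowest in the controls, with log2 levels of 6.90 on array A and 7.25 on array B. It measured 7.76 and 7.90 with calcitriol, 7.67 and 7.61 with TGF-β1, and 7.99 and 7.88 with the combination. Every treated array lay above both control arrays, and both calcitriol arrays lay above both TGF-β1 arrays, whereas the calcitriol and combination arrays overlapped. The order of the group means was therefore control (7.07 ± 0.24), TGF-β1 (7.64 ± 0.043), calcitriol (7.83 ± 0.093) and combination (7.94 ± 0.076; log2 level, SD, n = 2), and the last pair does not differ beyond its spread. The control arrays were the most scattered of the 4 groups for this gene.

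As log2 differences from control, CD274 stood at 0.76 ± 0.13 (SE, a 1.69-fold level) with calcitriol, 0.57 ± 0.13 (1.48-fold) with TGF-β1 and 0.86 ± 0.13 (1.82-fold) with the combination. The gap between the control arrays sets how far these sizes can be trusted. Without control array A the same differences were 0.58, 0.39 and 0.69, and without control array B they were 0.93, 0.74 and 1.03.

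PDCD1LG2 had a different order. Its log2 levels were 6.80 and 6.58 in the controls, 7.10 and 6.89 with calcitriol, 7.52 and 7.60 with TGF-β1, and 7.46 and 7.55 with the combination. Every treated array again lay above both controls, but the lower calcitriol array exceeded the higher control by only 0.08. The TGF-β1 and combination arrays overlapped, and all 4 lay above both calcitriol arrays. The group means rank as control (6.69 ± 0.16), calcitriol (6.996 ± 0.15), combination (7.51 ± 0.065) and TGF-β1 (7.56 ± 0.056; log2 level, SD, n = 2).

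The log2 difference of PDCD1LG2 from control was 0.31 ± 0.12 (SE, 1.24-fold) with calcitriol, 0.87 ± 0.12 (1.83-fold) with TGF-β1 and 0.82 ± 0.12 (1.76-fold) with the combination. Both PD-1 ligands thus stood above control with each agent, with calcitriol giving the larger difference for CD274 and TGF-β1 for PDCD1LG2. Calcitriol minus TGF-β1 was 0.19 for CD274 and -0.56 for PDCD1LG2 on the log2 scale. The single agents were not set against each other in the fit. The 0.19 of CD274 is near the SE of its differences from control (0.13), so its order of agents is not settled.

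CD276 was nearly level across the 4 groups. Its log2 levels were 7.17 and 7.22 in the controls, 7.09 and 7.20 with calcitriol, 7.05 and 7.09 with TGF-β1, and 7.03 on both arrays with the combination. The calcitriol arrays overlapped the controls, and the TGF-β1 and combination arrays lay just below them. The log2 differences were -0.05, -0.12 and -0.16, each ± 0.097 (SE). From the lowest to the highest of the 8 arrays CD276 spanned 0.19 on the log2 scale, against 1.09 for CD274 and 1.02 for PDCD1LG2.

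**Figure D1:**
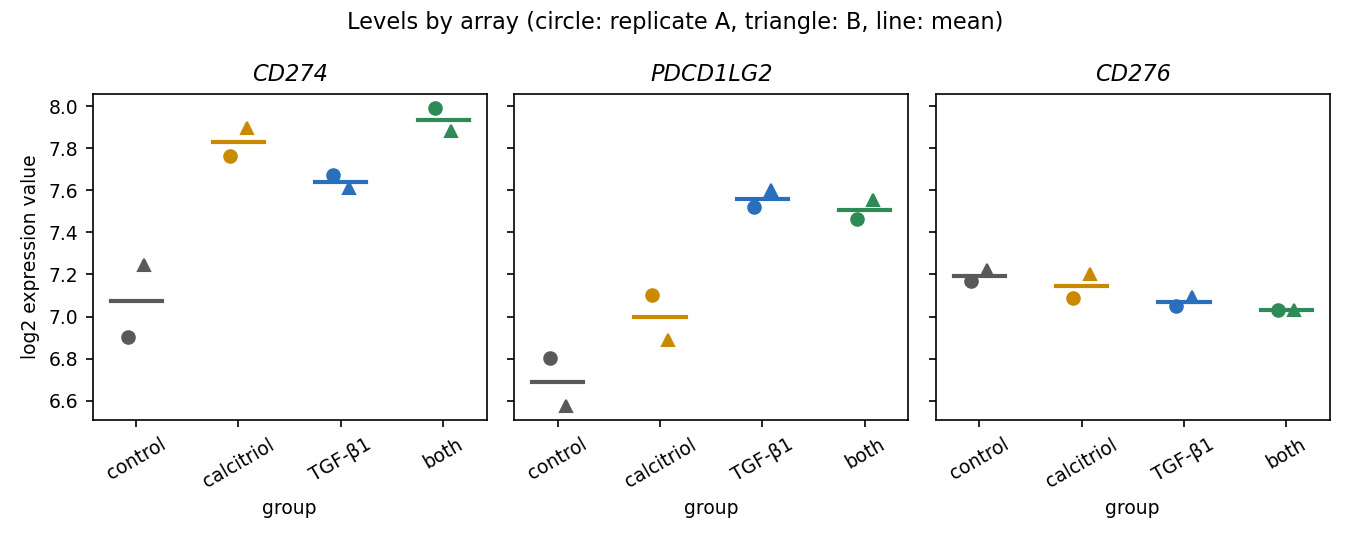
Deposited log2 level of each ligand gene on each of the 8 arrays, with the treatment groups along the horizontal axis, 1 point per array and a bar at each group mean. CD274 and PDCD1LG2 lie above control in every treated group, in different orders, and CD276 spans 0.19.

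These sizes can be placed among all 23854 genes of the fit. With calcitriol, 30 genes had a larger difference than CD274 and 1097 had a larger one than PDCD1LG2. With TGF-β1 the numbers were 307 and 74, and with the combination 147 and 177. CD276 stood above 45.12%, 30.75% and 34.14% of genes in the same comparisons. The median difference was -0.03, -0.03 and -0.06 for all genes and -0.05, -0.06 and -0.12 for protein-coding genes. The reference point of these values is therefore slightly below 0.

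Since the genes were chosen with these contrasts known, an adjusted p of theirs is no independent test, and the following counts are listed beside the background with nothing read from them. At an adjusted p under 0.05 in limma over all genes, the ligand genes account for 0 calls with calcitriol, where 0.00838% of genes did (2 of 23854, and 1752 at an unadjusted p under 0.05). They account for 1 with TGF-β1 (PDCD1LG2, background 0.608%) and 2 with the combination (CD274 and PDCD1LG2, background 2.27%). Nothing is read either from the arrays that do not overlap. Both calcitriol arrays lay above both controls for 13.5% of genes and below them for 23.2%. The corresponding shares were 17.1% and 26.1% for TGF-β1, and 20.6% and 33.7% for the combination. Such shares were not taken between treated groups, so the order of their arrays has no background here.

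For both PD-1 ligands the combination stood below the sum of the single differences. For CD274 the single log2 differences sum to 1.32, and the combination stood at 0.86, which leaves an interaction of -0.46 ± 0.19 (SE). Without control array A that interaction was -0.29, and without control array B it was -0.63. For PDCD1LG2 the sum is 1.17 against 0.82, an interaction of -0.36 ± 0.18. For CD276 the sum of -0.17 and the combination's -0.16 differ by 0.01 ± 0.14. Lower interactions than those of CD274, PDCD1LG2 and CD276 were held by 3.15%, 6.16% and 50.97% of genes. Both single differences use the same control arrays, and the ligands were chosen with these contrasts known, so nothing is read from the shortfall. Over all genes, 0% had an adjusted p under 0.05 for the interaction in limma, 1229 genes had an unadjusted p under 0.05, and with a variance trend and robust moderation 2 genes passed.

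Set against each single agent, the combination lay close to the agent with the larger difference. CD274 stood 0.11 above calcitriol alone and 0.30 above TGF-β1 alone, and PDCD1LG2 stood 0.51 above calcitriol alone and -0.05 from TGF-β1 alone (log2 differences). CD276 differed by -0.12 from calcitriol and by -0.04 from TGF-β1. Against TGF-β1 0% of all genes had an adjusted p under 0.05 in limma, with 2210 at an unadjusted p under 0.05 and 5 with trend and robust moderation, and against calcitriol 0.587% did.

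**Figure D2:**
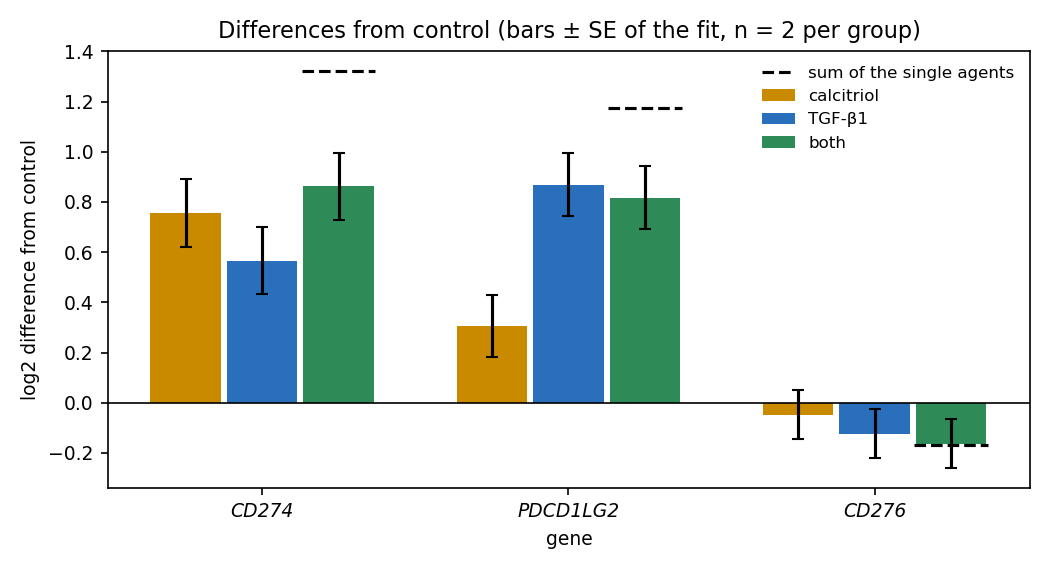
Log2 difference of each ligand gene from control for calcitriol, TGF-β1 and the combination, with the sum of the single differences beside the combination and bars for the standard error of the fit. For CD274 the sum is 1.32 and the combination 0.86, for PDCD1LG2 1.17 and 0.82, and for CD276 -0.17 and -0.16.

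Over the 8 arrays the level of CD274 correlated with that of PDCD1LG2 at r = 0.60, CD274 with CD276 at -0.57 and PDCD1LG2 with CD276 at -0.91. The points share 4 groups of 2 arrays and the same normalization, so these values describe the group pattern. CD276 varies over only 0.19, and its negative correlation with PDCD1LG2 is a correlation with that small range.

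The protein-coding genes whose levels ran most like CD274 over the 8 arrays, of 14728 compared, were FAT4, an atypical cadherin (r = 0.989), CDA, the cytidine deaminase of pyrimidine salvage (0.976), VAV3 (0.970), SELENOP, a secreted selenium carrier (0.954), and CASP14, the caspase of differentiating keratinocytes (0.949). CASP14 had mean log2 levels of 7.80 in the controls, 8.73 with calcitriol, 8.22 with TGF-β1 and 8.81 with the combination, the same order as CD274. Those most like PDCD1LG2 were TTPAL (0.987), the bromodomain gene BAZ2B (0.985), DYSF, which acts in membrane repair (0.983), the growth factor gene FGF5 (0.982) and the serum- and glucocorticoid-regulated kinase gene SGK1 (0.981). SGK1 stood at 5.86, 6.40, 7.74 and 7.70 in the same group order. CD276 ran most like PTGS1, which encodes cyclooxygenase 1 (0.975), CTSD, the lysosomal protease cathepsin D (0.972), GARIN5A (0.970), the epithelial ETS factor gene EHF (0.966) and the ribosome biogenesis gene NIP7 (0.962). High values are to be found among so many genes with 8 points, and they are given as likeness of pattern only.

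No neighbour of CD274 and PDCD1LG2 passed the test. Of the 10 nearest tested genes, 5 on each side of the pair, 0 had an adjusted p under 0.05 in limma against control with any of the 3 treatments, and 0, 2 and 2 had an unadjusted p under 0.05 with calcitriol, TGF-β1 and the combination (0 in each with trend and robust moderation). Their log2 differences ran from -0.21 to 0.23 with calcitriol, from -0.67 to 0.24 with TGF-β1 and from -0.54 to 0.29 with the combination. PLGRKT, a plasminogen receptor gene and the nearest protein-coding neighbour of CD274 among them, had 0.10, -0.20 and -0.17. The other tested genes on that side, MTND5P14, TCF3P1, IGHEP2 and RNF152P1, are annotated as pseudogenes. MIR4665, on the side of PDCD1LG2, is a microRNA gene. RIC1, a Golgi trafficking gene on the side of PDCD1LG2, had 0.12, -0.12 and 0.06. The lowest value with TGF-β1 was that of MLANA, a melanocyte antigen gene (adjusted p = 0.16). Around CD276 the 10 nearest tested genes also held 0 with an adjusted p under 0.05, against 1, 2 and 3 with an unadjusted p under 0.05 and 0, 2 and 3 with trend and robust moderation. LOXL1, a lysyl oxidase of elastic fibres, came closest with the combination (log2 difference -0.47, adjusted p = 0.0551).

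**Figure D3:**
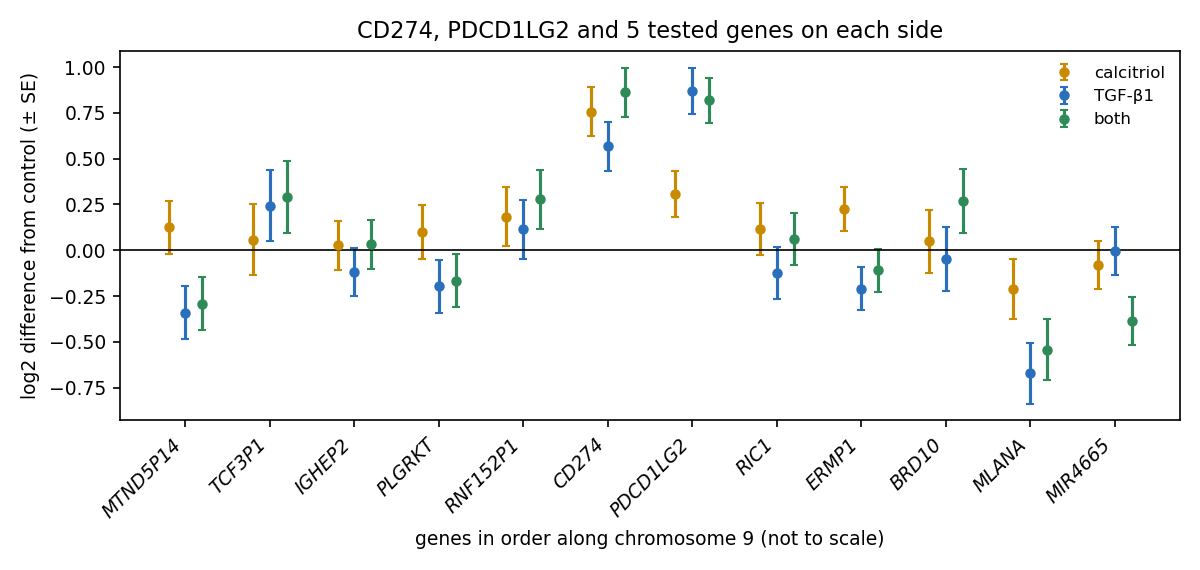
Log2 difference from control of CD274, PDCD1LG2 and the 5 nearest tested genes on each side of the pair, for the 3 treatments. Genes are in order along the chromosome and not to distance. CD274 and PDCD1LG2 stand above all of their neighbours in each treatment. CD276 and its neighbours are not drawn.

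Other genes of the checkpoint system were followed in 5 lists of 85 genes, of which 66 passed the filter. With calcitriol 0 of the 66 changed, with TGF-β1 1 fell, and with the combination 3 fell, each at an adjusted p under 0.05 in limma over all genes. At an unadjusted p under 0.05 there were 9 (13.64%), 8 (12.12%) and 21 (31.82%) of the 66, against 7.34%, 12.6% and 23.8% of all genes. With trend and robust moderation 0, 4 and 13 of the 66 passed the adjusted threshold, as did 18, 762 and 3072 of all genes. The median log2 difference of the 66 was -0.07 with calcitriol, -0.02 with TGF-β1 and -0.12 with the combination. It was -0.03, -0.03 and -0.06 over all genes, and -0.05, -0.06 and -0.12 over the protein-coding genes tested. With calcitriol SOCS1 (0.40) and HIP1R (0.35) had higher log2 differences than PDCD1LG2 (0.31), as the plot of the lists shows. Both were named after their values were seen and did not pass the test. The other HIP1R feature, not used for the test, went the other way, from 5.40 and 5.46 in the controls to 4.90 and 4.88 with calcitriol. SOCS1 measured 4.77 and 5.68 in the controls, so its difference rests on scattered arrays. No list gene stood as high as CD274 with calcitriol, or as high as either PD-1 ligand with TGF-β1 or the combination. The ligands were chosen with these values known.

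Among the other checkpoint ligands 17 of 24 were tested, and 0 passed in any of the 3 comparisons with control (3, 2 and 5 at an unadjusted p under 0.05, and 0, 0 and 2 with trend and robust moderation). Their medians were -0.07 with calcitriol, -0.0013 with TGF-β1 and -0.21 with the combination (log2 difference). CD47, the signal that restrains phagocytes, had 0.01, -0.11 and 0.04 in that order. LGALS3, a galectin, had -0.04, 0.01 and -0.05, and PVR, a ligand of TIGIT, had -0.16, 0.11 and -0.07. NECTIN2, another ligand of the TIGIT family of receptors, had -0.10, 0.04 and -0.27. NCR3LG1, the B7-H6 gene, and SIGLEC15 were picked out after their values were seen, and their differences with the combination were -0.72 (adjusted p = 0.0557) and -0.61 (adjusted p = 0.0574).

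Of 15 genes for checkpoint receptors, 14 had a feature, 3 of which lay above the negative controls on all arrays and 8 on none. Of the 7 tested 0 passed in limma (3, 0 and 3 at an unadjusted p under 0.05, and 0, 0 and 1 with trend and robust moderation). The medians were -0.24, -9e-04 and -0.12 for calcitriol, TGF-β1 and the combination. RGMB, the other binding partner of PD-L2, had 0.04, -0.0009 and -0.12. SIRPA, the receptor of CD47, had 0.20, 0.26 and 0.49, the last with an adjusted p of 0.0759. TMIGD2 had -0.25, -0.10 and -0.36, and LAG3 had -0.14, 0.22 and -0.25. LAG3 measured 5.12 and 4.50 with the combination, the latter under the negative controls. CD226, also among the tested receptors, lay above the negative controls on 0 of 8 arrays.

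Interferon and JAK-STAT genes, the main known input to CD274, held 0 changed genes among 15 tested of 17 in all 3 comparisons (1, 2 and 3 at an unadjusted p under 0.05, and 0, 0 and 2 with trend and robust moderation). Their medians were -0.07, 0.04 and -0.01. The receptor chain IFNGR2 had -0.13, -0.11 and -0.41 (adjusted p = 0.0738 with the combination), the kinase JAK1 had -0.01, 0.13 and 0.21, the interferon receptor chain IFNAR2 had -0.07, -0.03 and -0.04, and the phosphatase PTPN2 had -0.04, 0.11 and 0.13. Dimmer features of IFNGR2 and PTPN2, not used for the test, went the other way with TGF-β1. IRF1, chosen after its values were seen because its factor binds elements of the kind capitalised above, had -0.27, -0.37 and -0.57 (adjusted p = 0.172 with the combination). Of the 15 tested genes, 1, 8 and 7 had a difference above 0 in the same order.

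The genes that fell were all in the list of other transcription inputs, with 14 of 16 tested. WWTR1, which encodes the Hippo pathway co-activator TAZ, measured 8.18 and 8.21 (log2) in the controls, 7.54 and 7.38 with TGF-β1 and 7.32 and 7.44 with the combination. It fell by 0.73 ± 0.11 (SE, adjusted p = 0.0369) with TGF-β1 and by 0.81 ± 0.11 (adjusted p = 0.0183) with the combination, with no overlap between the arrays. MYC, a transcription factor of growth that has been reported to raise CD274, measured 9.41 and 9.53 in the controls and 8.68 and 8.77 with the combination, and fell by 0.75 ± 0.12 (adjusted p = 0.0275). FOSL1, which encodes the AP-1 subunit FRA-1, went from 11.06 and 11.04 to 10.44 and 10.52 and fell by 0.57 ± 0.095 (adjusted p = 0.0338). Leaving out any 1 of the 8 arrays took the call of WWTR1 with TGF-β1 and of FOSL1 with the combination past an adjusted p of 0.05. For WWTR1 and MYC with the combination, leaving out either control or either combination array did so, and for MYC either calcitriol array as well.

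The combination set against calcitriol alone gave 1 list gene higher, JUN, another AP-1 subunit (0.68 ± 0.11, adjusted p = 0.0475), and 1 lower, WWTR1 (-0.69, adjusted p = 0.0475). The vitamin D receptor gene VDR and SMAD3, a SMAD of TGF-β1 signalling, did not pass. VDR, named after its values were seen, had -0.30, -0.10 and -0.36, and SMAD3 had 0.02, 0.01 and 0.05 for calcitriol, TGF-β1 and the combination.

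Genes that act on the PD-L1 protein were tested in full, 13 of 13, and 0 passed in any comparison with control (1, 0 and 4 at an unadjusted p under 0.05, and 0, 0 and 2 with trend and robust moderation). The medians were -0.07, -0.07 and -0.12. The oligosaccharyltransferase genes STT3A and STT3B had -0.11 and -0.18 with the combination, the palmitoyltransferase gene ZDHHC3 had -0.26 and the kinase gene GSK3B had -0.12. The value of ZDHHC3 is that of its brightest feature, and its dimmer features went either way. CMTM6, which keeps PD-L1 from lysosomal degradation, was chosen after its values were seen and had -0.15, -0.07 and -0.11. The arrays measure RNA, and no surface protein was measured here.

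**Figure D4:**
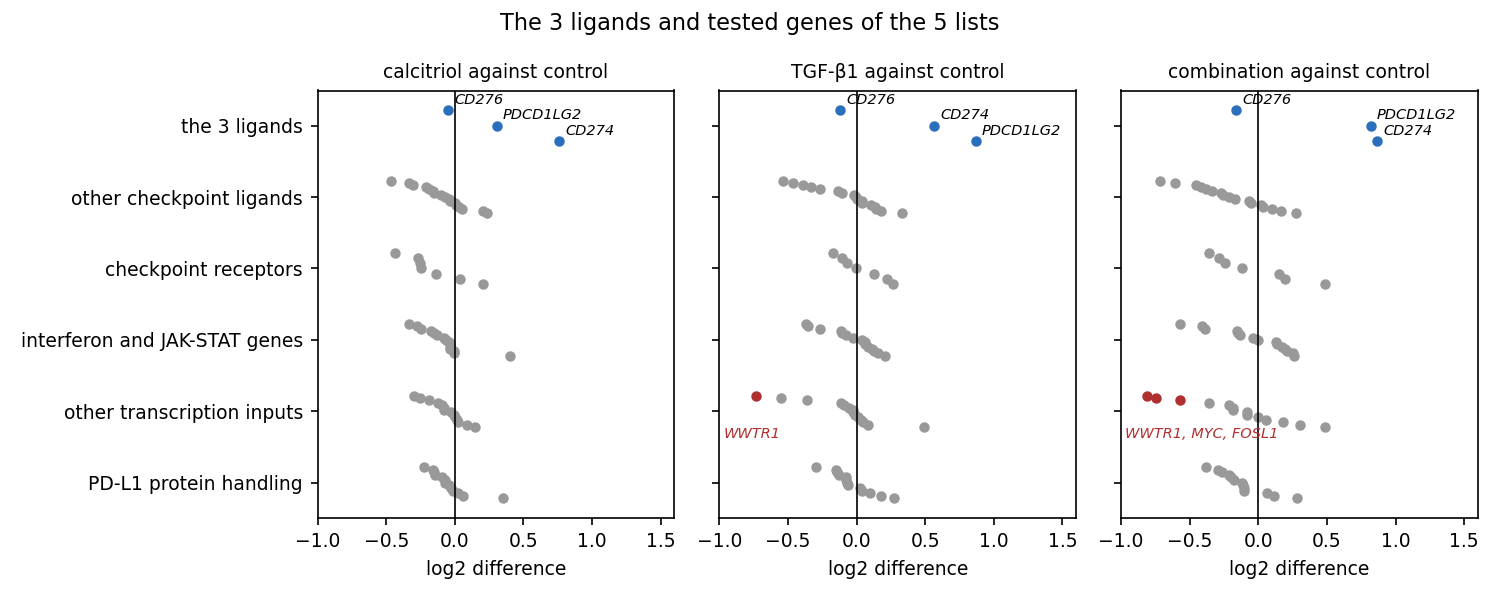
Log2 difference from control of the 3 ligand genes (blue) and of the tested genes of the 5 lists (grey), 1 point per gene, with genes at an adjusted p under 0.05 in red and named. WWTR1 fell with TGF-β1, and WWTR1, MYC and FOSL1 fell with the combination.

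Known targets moved with their agents. CYP24A1, which encodes the enzyme that inactivates calcitriol, rose by 4.46 (log2, adjusted p = 0.0247) with calcitriol and by 4.82 (adjusted p = 0.00297) with the combination, and TGFBI rose by 3.27 with TGF-β1 (adjusted p = 0.000463). IGFBP3 rose in limma by 1.64 with calcitriol (adjusted p = 0.015) and by 1.95 with TGF-β1 (adjusted p = 0.001). PMEPA1 rose by 1.19 with TGF-β1 (adjusted p = 0.012) and lost that call in 5 of 16 alternatives. The calls of CYP24A1 and IGFBP3 with calcitriol were each lost in 8 of 16 alternatives. The replicate block, for example, called no gene with calcitriol. Epithelial markers were above the negative controls on all 8 arrays, 5 of 5. Of 9 leukocyte markers 8 had a feature and 4 lay above the negative controls on all arrays (CD14, CD68, CD83 and ITGAX), while MS4A1 and LYZ lay above them on none and PTPRC, the pan-leukocyte gene, on 1 of 8, a control array. PTPRC was the 1 gene of the epithelial, leukocyte, fibroblast and endothelial markers with an adjusted p under 0.05 against control, at a log2 difference of -0.78 with the combination (adjusted p = 0.0244), where both arrays lay under the negative controls. The summed log2 level of the leukocyte markers ran from 43.67 to 44.57 in the controls, 42.51 to 43.92 with calcitriol, 43.47 to 43.82 with TGF-β1 and 42.68 to 42.89 with the combination. Of 7 fibroblast markers 2 lay above the negative controls on all arrays (COL1A1 and COL1A2) and THY1 on none, and of 5 endothelial markers 2 did (CDH5 and VWF) and KDR and TEK on none. Their summed log2 levels lay between 39.01 and 40.83 and between 22.94 and 24.6 over the 8 arrays, and the part of any marker list in the ligand differences was not tested. All arrays came from the PC-3 line, and a marker's signal is not read as the presence of another cell type. In such bulk RNA, fewer cells carrying a transcript and less of it per cell cannot be told apart. The gap between positive and negative array controls was lower with the combination (6.74 ± 0.051) than in control (7.03 ± 0.015, log2, SD, n = 2), and its part in the small negative differences of CD276 and of the lists was not tested. Cyclic loess over protein-coding genes moved their median differences from -0.05, -0.06 and -0.12 to near 0 and brought CD276 to 0.0058, -0.058 and -0.050.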

How the data were processed

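Expression was measured in 8 arrays of PC-3 cells, 2 per group, grouped by their titles. All results start from the log2 levels deposited for each feature on each array, which the authors made with RMA, oligo and limma, per the submitters' processing notes. The sources used here give no versions, genome build or log base, and base 2 is taken as the usual RMA output. Array medians lay between 4.33 and 4.35. The number of arrays limits the precision.

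Features with exactly 1 symbol (36176) and a value above 4.34, the 50th percentile, in at least 2 arrays were kept, and the feature with the highest mean stood for a gene. One mean per group was fitted to 23854 genes in limma 3.58.1 (R 4.3.3) with empirical Bayes moderation, 4 residual degrees of freedom, two-sided tests and Benjamini-Hochberg adjustment over all genes. Exact permutation cannot reach 0.05 with 2 arrays per group. The script was tested on simulated data. The members and lists were chosen with earlier results of these data known. Named genes are the ligands, list genes with an adjusted p under 0.05 or otherwise the 4 brightest of a list, 5 neighbours per side, the 5 most alike genes and treatment checks. Arrays of the same letter did not deviate together (correlations from -0.0836 to 0.081), so the letters were not used as pairs.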

Additional observations from a re-analysis of the deposited data

How the results depend on the processing

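CD274 and PDCD1LG2 stayed above control in all 3 comparisons under all 16 alternatives. PDCD1LG2 ran from 0.19 to 0.42 with calcitriol, 0.76 to 0.98 with TGF-β1 and 0.70 to 0.93 with the combination. Leaving out 1 array, CD274 ran from 0.58 to 0.93, 0.39 to 0.74 and 0.69 to 1.03 in that order, and CD276 with calcitriol from -0.10 to 0.0094, changing sign. Cyclic loess gave CD276 0.0058, -0.058 and -0.050. Counts of changed genes depended on the setting more than the values did. In the order calcitriol, TGF-β1, combination, combination against TGF-β1 and combination against calcitriol they were 2, 145, 542, 0 and 140 as reported. They became 5, 364, 1811, 1 and 304 with a filter at the 75th percentile, and 18, 762, 3072, 5 and 1059 with a variance trend and robust moderation (interaction 2). Without a filter TGF-β1 gave 38, the combination 134 and the combination against calcitriol 56. Fitting only the groups of a contrast gave 1, 12, 14, 0 and 2, and leaving out 1 array 0 to 2, 12 to 48, 13 to 218, 0 to 1 and 0 to 83. The replicate block on the letters A and B, which the labels do not describe as pairs, gave 0, 43, 213, 0 and 66. List genes changed with TGF-β1 (1) and the combination (3) became 0 and 1 without a filter, 3 and 9 with the 75th percentile, 0 and 0 with only the groups of a contrast, 4 and 13 with trend and robust moderation, 0 and 3 with the replicate block, and 0 and 0 to 2 leaving out 1 array. SMAD7, a check of TGF-β1 signalling, rose by 0.81 with TGF-β1 (adjusted p = 0.0466) and lost that call in 12 of 16 alternatives, for example without a filter (adjusted p = 0.109). With calcitriol it did not pass (0.12) and had -0.079 with the mean over its features (adjusted p = 0.918). The cause of these changes in the counts was not tested.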
